A study of Mus musculus with 12 samples.

Results

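UCSF034_000379 and UCSF034_000380 are a pair of microRNA probes with consecutive serial numbers on a custom mouse array. They were chosen by their measured array signal, low in adult lung and high in the other 3 groups of the series, so that contrast is described here without a test. They are 2 of 2579 non-control probes, and both are among the 947 probes that were well above background on at least 3 of the 12 arrays and were tested.

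The arrays held Cy3-labelled microRNA from mouse epithelial cells in 4 groups of 3 samples, which were adult and reprogrammed cells labelled as lung and adult and reprogrammed cells labelled as mammary gland. The growth text is the same for all 12 samples and gives female mice aged 10 weeks as the adult donors, whose epithelium was purified from digested tissue by repeated centrifugation, with no cell sort named, so other cells of the tissue may have been carried over. The title describes reprogramming of adult lineages that depends on stroma, in vivo. The labels give no genotype, strain or time after grafting, and they do not settle whether reprogrammed lung cells came from lung or took on a lung fate. Nor do they tie replicates to separate mice, and p-values therefore speak only of how far these samples spread, possibly for technical reasons.

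MicroRNAs are short RNAs that guide Argonaute proteins to partly complementary messenger RNAs, whose translation and stability they lower. Many are made from clusters that are transcribed together, and their levels differ between epithelia and change as cells take on a lineage. An array probe is a short DNA that captures a labelled microRNA, and closely related microRNAs can bind the same probe. The tables used here pair neither probe with a microRNA or a sequence, so no microRNA is named and no sequence is shown. Marker microRNAs of epithelium, blood, endothelium and fibroblasts could not be looked up for the same reason, and the labelled cell types were not checked.

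The arrays differed in brightness, measured by the 75th percentile of their processed signal. Adult lung arrays were the brightest at 2516 ± 387, reprogrammed lung arrays had 1525 ± 224, adult mammary arrays 1427 ± 93.3 and reprogrammed mammary arrays 842 ± 33.1 (SD, n = 3). On average the count of detected probes ran from 733 in reprogrammed mammary to 912 in adult lung cells. The pair was thus dim on the brightest arrays. Values below are log2 processed signal after each array was scaled to the same 75th percentile, with a floor of 3.41, unless another scale is named. The number of arrays limits the precision of every value. Signal from whole samples cannot tell fewer cells of a type from less RNA per cell.

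In adult lung cells UCSF034_000379 had a log2 signal of 4.51, 4.63 and 4.82 in replicates 1, 2 and 3. In adult mammary cells it had 9.69, 9.09 and 8.52 in replicates 1, 2 and 4. The 3 adult lung arrays lay close together, and every adult mammary array lay far above them. In reprogrammed lung cells the signal was 9.60, 10.62 and 10.22 in replicates 1, 2 and 3. In reprogrammed mammary cells it was 8.85, 9.03 and 8.91 in replicates 1, 2 and 4. The group means, in the order of these sentences, were 4.66 ± 0.15, 9.10 ± 0.58, 10.14 ± 0.51 and 8.93 ± 0.092 (SD, n = 3).

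UCSF034_000380 gave the same picture at a higher signal. In adult lung cells it had 5.04, 5.05 and 5.68 in replicates 1, 2 and 3. In adult mammary cells it had 11.08, 10.32 and 9.84 in replicates 1, 2 and 4. Replicate 1 was the highest adult mammary array for both probes, and replicate 4 the lowest. In reprogrammed lung cells the signal was 10.91, 12.41 and 12.18 in replicates 1, 2 and 3, and replicate 1 was the lowest array of its group for both probes. In reprogrammed mammary cells it was 10.22, 10.59 and 10.62 in replicates 1, 2 and 4. The group means were 5.26 ± 0.36, 10.42 ± 0.63, 11.83 ± 0.81 and 10.48 ± 0.22 (SD, n = 3), in the same order of groups. Signals of different probes do not compare amounts of RNA, since capture and labelling differ between probes.

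On the unscaled processed signal the gap was also plain. UCSF034_000379 had 36.7, 38.8 and 57.8 in the adult lung arrays, against 756, 571 and 358 in adult mammary cells. It had 894, 1368 and 1328 in reprogrammed lung, against 275, 308 and 271 in reprogrammed mammary cells. The reprogrammed mammary arrays, the dimmest of the series, read higher than the adult lung arrays, and the part of brightness in the gap was not tested. UCSF034_000380 had 52.2, 52.0 and 104 in adult lung and 1988, 1335 and 894 in adult mammary cells. In reprogrammed lung cells it had 2219, 4747 and 5178, and in reprogrammed mammary cells 709, 906 and 872. Without any scaling between arrays, no adult lung array overlapped another group at either probe. That is the contrast that chose the probes, and the share of all probes without such overlap was not counted on this scale.

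Low did not mean undetected. Each probe has 6 spots on an array, spread over its surface, and all 36 spots of the pair in adult lung cells were well above background by the scanner software's test. In processed signal the lowest adult lung spot read 24.3 for UCSF034_000379 and 44.3 for UCSF034_000380. The brightest negative-control spot without an outlier flag on those arrays read 5.28. Before background subtraction, the median spot signal of the adult lung arrays was 68.0 to 89.25 for UCSF034_000379 and 83.25 to 129.25 for UCSF034_000380, above a local background of 18.5 to 21.5. Both probes thus gave a low, measured signal on the adult lung arrays rather than none. Which RNA or which cells gave that signal was not tested. Over the 12 arrays, 72 of 72 spots of each probe were well above background and 0 were saturated. Spots of a probe on 1 array agreed closely, with a median SD of 0.089 for UCSF034_000379 (0.019 to 0.305 over the arrays) and 0.073 for UCSF034_000380 (0.029 to 0.194) on the log2 scale. For UCSF034_000379 the median spot SD was larger than the SD between arrays in adult lung (0.219 against 0.153) and in reprogrammed mammary cells (0.0962 against 0.0916). In the other groups, and in all groups for UCSF034_000380, it was smaller. The spot SD is that of single spots, while each array value is a mean of up to 6 spots. These SDs therefore do not show that spot noise exceeded the spread between arrays. Outlier flags removed 2 spots of UCSF034_000379 and 1 of UCSF034_000380.

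The differences from adult lung are a description, since they chose the probes. UCSF034_000379 was higher than in adult lung by 5.49 in reprogrammed lung, by 4.45 in adult mammary and by 4.28 in reprogrammed mammary cells (log2), or 44.9-fold, 21.8-fold and 19.4-fold. UCSF034_000380 was higher by 6.58, 5.16 and 5.22 (95.4-fold, 35.7-fold and 37.2-fold). The median difference over all 947 probes was 0.14, -0.0011 and 0.165 in the same order. Of all tested probes, 35.1%, 26.6% and 43.7% passed the threshold in these contrasts (limma, adjusted p under 0.05), 20.2%, 14.9% and 24.9% of all tested being higher than in adult lung. All 9 arrays outside adult lung lay above all 3 adult lung arrays for 145 probes, or 15.3% of those tested. The pair is thus part of a wider set of probes that were lower in adult lung, and nothing is read from these shares about the pair.

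The sizes of these differences varied with the processing. Over the 25 alternatives, UCSF034_000379 was higher than in adult lung by 4.12 to 5.76 in reprogrammed lung, by 3.14 to 4.74 in adult mammary and by 2.71 to 4.49 in reprogrammed mammary cells (log2). UCSF034_000380 was higher by 5.59 to 7.04, 4.21 to 5.46 and 3.65 to 5.52. After normexp background correction the difference between reprogrammed lung and adult lung was 4.28 for UCSF034_000379 and 5.59 for UCSF034_000380. In the authors' value table UCSF034_000379 had log2 values of 5.89, 5.97 and 6.02 in adult lung and 9.69, 10.56 and 9.97 in reprogrammed lung cells, a difference of 4.12. UCSF034_000380 had 6.12, 6.20 and 6.39 in adult lung and 11.21, 12.39 and 12.04 in reprogrammed lung cells in that table, a difference of 5.64. Values outside adult lung were close in both sources, while the adult lung values were higher in the authors' table, and the cause was not tested. Within slide 1 and slide 2, the slides with adult lung arrays, reprogrammed lung was higher by 5.64 and 5.80 for UCSF034_000379 and by 7.13 and 6.73 for UCSF034_000380. Adult mammary was higher by 5.12 and 3.70, and by 6.04 and 4.16. Reprogrammed mammary was higher by 4.34 and 4.22, and by 5.57 and 4.91.

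The order of the groups above adult lung was then examined, which the choice of the probes did not fix. Reprogrammed lung had the highest mean for both probes. Below it, adult mammary and reprogrammed mammary lay close together, with adult mammary slightly higher for UCSF034_000379 and slightly lower for UCSF034_000380. None of these neighbours in the order differed past the threshold, as the comparisons below give.

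Reprogrammed mammary was compared with reprogrammed lung to ask whether the tissue label set the level of the pair among reprogrammed cells. For both probes all 3 reprogrammed lung arrays lay above all 3 reprogrammed mammary arrays. UCSF034_000379 differed by -1.21 ± 0.31 (log2, SE, 95% interval -1.90 to -0.52), which is 2.31-fold lower in reprogrammed mammary cells, with an adjusted p of 0.0854 in limma over all 947 probes. UCSF034_000380 differed by -1.36 ± 0.42 (SE, 95% interval -2.30 to -0.41), or 2.56-fold lower, with an adjusted p of 0.130 in limma. Neither passed the threshold, though both intervals leave out 0, since the intervals are not adjusted for the number of probes. In this comparison 2 of 947 probes passed (0.211%), while an unadjusted p under 0.05 was found for 181. Groups free of overlap were seen for 19.6% of all probes, and reprogrammed mammary was the lower group for 9.61%. The median size of the difference over all probes was 0.304, regardless of direction.

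Each of the 3 slides held 1 array of each reprogrammed group. On slides 1, 2 and 3 the difference was -1.30, -1.58 and -0.75 for UCSF034_000379, and -1.56, -1.82 and -0.69 for UCSF034_000380. Reprogrammed mammary was lower on every slide, and the difference was smallest on slide 3, which held reprogrammed lung replicate 1. With no scaling between arrays both probes passed, with -2.06 (limma, adjusted p = 0.0016) for UCSF034_000379 and -2.20 (limma, adjusted p = 0.0035) for UCSF034_000380, but there the median of all probes was itself shifted by -0.69. After normexp background correction both passed too, with -1.06 (limma, adjusted p = 0.0072) for UCSF034_000379 and -1.31 (limma, adjusted p = 0.0117) for UCSF034_000380, against a median of all probes of 0.48. The groups also differed in brightness, by the values above, and the part of brightness in the difference was not tested.

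Reprogrammed mammary was compared with adult mammary because both groups carry the mammary label and were high at both probes. UCSF034_000379 differed by -0.17 ± 0.31 (log2, SE, 95% interval -0.86 to 0.52, limma adjusted p = 0.822). UCSF034_000380 differed by 0.06 ± 0.42 (SE, 95% interval -0.88 to 1.00, limma adjusted p = 0.994). The groups overlapped for both probes, and the intervals still allow differences of close to 1 on the log2 scale, so they do not show that the levels were the same. Of all probes, 8.98% passed in this comparison, and the groups did not overlap for 29.5%. The slides went both ways, with -0.77, 0.51 and -0.24 for UCSF034_000379 and -0.47, 0.75 and -0.10 for UCSF034_000380 on slides 1, 2 and 3. The small difference of UCSF034_000380 turned to the other sign under 5 of the scalings and sources tried. With no scaling UCSF034_000379 passed at -0.93 (limma, adjusted p = 0.0376), where the median of all probes was -0.58.

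Reprogrammed lung was higher than adult mammary at both probes without passing the threshold. The difference was 1.04 ± 0.31 for UCSF034_000379 (log2, SE, 95% interval 0.35 to 1.73, limma adjusted p = 0.0780). It was 1.42 ± 0.42 for UCSF034_000380 (SE, 95% interval 0.47 to 2.36, limma adjusted p = 0.0792). These SEs rest on a spread shared by all 4 groups. At UCSF034_000380 the SD was 0.81 in reprogrammed lung and 0.63 in adult mammary, against 0.36 in adult lung and 0.22 in reprogrammed mammary cells. The intervals of this comparison may therefore be too narrow. The groups overlapped, because adult mammary replicate 1 read higher than reprogrammed lung replicate 1 at both probes. Of all probes 4.33% passed here, and the groups did not overlap for 23%. On slides 1, 2 and 3 the difference was 0.53, 2.10 and 0.51 for UCSF034_000379, and 1.09, 2.57 and 0.59 for UCSF034_000380. The sign was the same on every slide, with the largest value on slide 2. The call changed with no scaling and when reprogrammed lung replicate 1 was left out. Without that array the difference was 1.32 for UCSF034_000379 (limma, adjusted p = 0.0399) and 1.88 for UCSF034_000380 (limma, adjusted p = 0.0322), and both passed. With no scaling both passed as well, at 1.13 (limma, adjusted p = 0.0433) for UCSF034_000379 and 1.505 (limma, adjusted p = 0.0485) for UCSF034_000380.

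The probes were then compared with each other, since equal movement would leave a constant gap between their log2 signals. UCSF034_000380 minus UCSF034_000379 was 1.69 ± 0.34 in reprogrammed lung, 1.54 ± 0.17 in reprogrammed mammary, 1.31 ± 0.084 in adult mammary and 0.60 ± 0.23 in adult lung cells (log2, SD, n = 3). Outside adult lung the gaps overlapped between every pair of groups. Reprogrammed lung exceeded adult mammary by 0.37 (exact two-sided permutation p = 0.3, adjusted over 3 pairs 0.45). Reprogrammed mammary exceeded adult mammary by 0.23 (exact permutation p = 0.2, adjusted 0.45), and reprogrammed mammary minus reprogrammed lung was -0.15 (exact permutation p = 0.5, adjusted 0.5). With 3 arrays against 3 the smallest p such a test can give is 0.1, so it could not have passed the threshold. The smaller gap in adult lung is a description, and both probes were nearest to the background there.

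Over the 9 arrays outside adult lung the signals of both probes rose and fell together. Pearson's r was 0.974 (exact permutation p = 4.1e-05) and Spearman's rho was 0.933 (exact permutation p = 0.00075). Without reprogrammed lung replicates 2 and 3, the arrays farthest from the median of UCSF034_000379, r was 0.924 over 7 arrays (exact permutation p = 0.0040). This was 1 relation of its family, so there was nothing to adjust. Each slide holds 3 of these arrays, too few for a value within a slide. The points share their arrays, and hence depth and scaling. They also come from 3 groups with different means, and the permutation over all 9 arrays did not separate group differences from agreement within groups. Over deviations from the group means on all 12 arrays r was 0.94, against a median of 0.73 over 600 pairs of tested probes with consecutive serial numbers, the pair itself included. The mean of the pair had a median r of 0.095 with 941 other tested probes over such deviations.

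The probes on either side in serial number were looked at whatever their values, 5 before and 5 after the pair. Of these 10 neighbours 8 were tested, and in limma 0 passed in any of the 3 comparisons outside adult lung. At an unadjusted p under 0.05 there were 6 of 8 between the reprogrammed groups, 0 between reprogrammed and adult mammary, and 5 between reprogrammed lung and adult mammary, against 181, 240 and 204 of all 947 probes. All arrays outside adult lung lay above all adult lung arrays for 3 of the 8 tested neighbours, UCSF034_000381, UCSF034_000383 and UCSF034_000385. Over all tested probes the share was 15.3%. UCSF034_000383 was at the floor in adult lung, only just above it at 3.41 in adult mammary replicate 4, and not detected in reprogrammed mammary cells. The next probe, UCSF034_000381, followed the pair. Its log2 signal was 5.71, 5.70 and 5.90 in adult lung and 10.23, 9.63 and 9.03 in adult mammary cells. In reprogrammed lung it was 10.23, 11.19 and 10.64, and in reprogrammed mammary cells 9.37, 9.58 and 9.61. The group means of UCSF034_000381 exceeded adult lung by 3.86, 4.92 and 3.75 in adult mammary, reprogrammed lung and reprogrammed mammary cells, less than those of the pair. Between reprogrammed mammary and reprogrammed lung it differed by -1.17 (limma, adjusted p = 0.0898), and between reprogrammed lung and adult mammary by 1.06 (limma, adjusted p = 0.074), the same signs as the pair.

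UCSF034_000385 was at the floor on all 3 adult lung arrays and had 7.86, 7.23 and 6.65 in adult mammary cells. It had 7.81, 8.07 and 7.71 in reprogrammed lung, against 7.24, 7.29 and 7.17 in reprogrammed mammary cells. No fold is given for it, since 1 of the 3 adult lung arrays detected it and the floor sets its value there. UCSF034_000382 and UCSF034_000383 were at the floor in adult lung too and stayed below 4.80 elsewhere, with reprogrammed lung the highest group at both. UCSF034_000376 and UCSF034_000378 were at the floor on every array and were not tested, and UCSF034_000377 and UCSF034_000384 stayed close to it. UCSF034_000374 and UCSF034_000375, a few numbers before the pair, were well above the floor in every group. Their means were 10.497 and 9.52 in reprogrammed lung, 10.23 and 9.60 in adult lung and 9.59 and 8.99 in adult mammary cells. In reprogrammed mammary cells they were 9.13 and 8.42. Reprogrammed mammary minus adult lung was -1.09 for UCSF034_000374 and -1.18 for UCSF034_000375 (limma, adjusted p = 0.0457 and 0.0140). Both passed the threshold, as did 43.7% of all tested probes in this contrast. Over the processing alternatives these differences ran from -2.66 to -0.85 and from -2.75 to -0.95. In the same order of probes, reprogrammed lung minus adult lung was 0.27 and -0.077, and adult mammary minus adult lung -0.63 and -0.61. None of these passed the threshold in limma. The low adult lung signal was thus shared by some neighbours in number and not by others. Whether serial numbers follow families or clusters of microRNAs was not tested.

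The probes most like the pair were named by the correlation of their log2 signal with the mean of the pair over the 12 arrays. UCSF034_000381 (r = 0.998) and UCSF034_000385 (r = 0.990) came first, followed by UCSF034_000735 (r = 0.981), UCSF034_001624 (r = 0.966) and UCSF034_000859 (r = 0.957). These values mostly reflect the low adult lung arrays. UCSF034_000385, UCSF034_001624 and UCSF034_000859 were at the floor on all 3 adult lung arrays, so the floor enters their r. UCSF034_000859 was detected on 0 adult lung arrays. Under the other scalings, sources and filters, 3 to 5 of the 5 probes stayed in the list. UCSF034_000735 had a mean of 6.73 in adult lung against 9.79 in adult mammary, 10.05 in reprogrammed lung, with 9.54 in reprogrammed mammary cells. UCSF034_001624 was detected on 1 of 3 adult lung arrays and had means of 6.17, 6.37 and 6.51 in the other groups.

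Likeness within groups, taken over deviations from the group means, gave another list. It held UCSF034_000634 (r = 0.963), UCSF034_000467 (r = 0.952), UCSF034_000381 (r = 0.950), UCSF034_000468 (r = 0.949) and UCSF034_001624 (r = 0.941), and 2 of these 5 were in the first list. UCSF034_000634 differed less between groups than the pair did, with means of 9.25, 9.87, 9.60 and 9.76 in the order used above, lowest in adult lung. UCSF034_000467 and UCSF034_000468 were highest in adult lung, with r of -0.743 and -0.746 over the 12 arrays, though they shared the array-to-array deviations of the pair. The direction of UCSF034_000467 and UCSF034_000468 against adult lung turned after normexp background correction in some comparisons.

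Ranked by the smallest of the 3 differences from adult lung, UCSF034_000380 stood at 5.16 and UCSF034_000379 at 4.28. UCSF034_000901 lay between them at 4.79, and UCSF034_000385 at 3.83 and UCSF034_000381 at 3.75 came next. The floor set the adult lung value of UCSF034_000385, so its 3.83 and its place depend on that floor. Over the processing alternatives the difference of UCSF034_000385 between reprogrammed mammary and adult lung ran from 2.31 to 5.26. UCSF034_000901 differed from the pair in the spread of its adult lung arrays, which read 4.17, 4.93 and 9.94 in replicates 1, 2 and 3. Replicate 3 was the highest adult lung array at the pair too, but only at 4.82 for UCSF034_000379 and 5.68 for UCSF034_000380. The place of UCSF034_000901 rested on single arrays. Its smallest difference was 3.70 without adult lung replicate 1, below the floor-bound 3.83 of UCSF034_000385. Without adult lung replicate 3 it was 6.58, above both members.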

How the data were processed

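Spot intensity of 12 single-colour Agilent arrays, 1 sample each, was read from the deposited scanner files. Per the file headers, Feature Extraction 10.5.1.1 had subtracted the background, while the submitters' processing notes name 10.1. The reprogrammed lung replicate 3 file lacks a header, and its values carry 3 significant digits. The authors also deposited a table with log2 values of 2270 probes. Its columns have medians of 4.97 to 5.00, and each correlated best with its own array (12 of 12, r from 0.996 to 1.000), which gives the log2 scale and the direction. How it was scaled, centred and treated for background remains not given in the sources used here. Columns of other samples numbered 0.

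Of 15611 spots per array, 15075 belong to non-control probes. Outlier spots (164 to 345 per array) were dropped. Each array was scaled by its 75th percentile over 631 probes detected on all 12 arrays. Scaled signal was floored at 10.6, taken to log2 and averaged per probe. Detected means that over 0.5 of the spots, as a share, were well above background. Probes detected on at least 3 arrays (947) were tested with limma 3.58.1 in R 4.3.3, using 4 group means, 8 residual degrees of freedom, Benjamini-Hochberg adjustment over all of them and a threshold of 0.05. Exact permutation tests used scipy 1.17.1 in Python 3.11.15. The fit was run on simulated data with independent noise at each probe and the same spread in all groups. On average 3.5% to 4.8% of calls were false there. Probes deviated together on the real arrays, so that simulation does not cover the adjusted p-values given here.

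Named probes were the pair, 5 neighbours in number on each side, the 5 most correlated with the pair over 12 arrays, the 5 over deviations from group means, and the 3 with the next largest smallest difference from adult lung. The pair and these lists were chosen with earlier results of these data known. Alternatives covered scaling (all probes in the percentile, quantiles, none), normexp with an offset of 50 on median spot and background signals, the authors' values, total gene signal, the median over spots, a floor 4 times lower, other filters on dim probes, blocks for slide and replicate number, a fit of only the 2 groups compared, and leaving out each array. Slides come from the array identifiers.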

Additional observations from a re-analysis of the deposited data

How the results depend on the processing

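The tested differences between reprogrammed mammary and reprogrammed lung, and between reprogrammed lung and adult mammary, kept their sign in all 25 alternatives. They passed the threshold with no scaling (-2.06 and -2.20 for UCSF034_000379 and UCSF034_000380, then 1.13 and 1.505), and the first also after normexp (-1.06 and -1.31). Leaving out 1 array gave -1.48 to -0.97 and -1.82 to -1.07 for the first, and 0.75 to 1.34 and 1.13 to 1.88 for the second, where leaving out reprogrammed lung replicate 1 gave 1.32 and 1.88 and passed the threshold. Between reprogrammed mammary and adult mammary UCSF034_000379 passed with no scaling (-0.93). UCSF034_000380, at 0.06, turned to -0.026 with all probes in the percentile, -0.040 after quantile scaling, -0.70 with no scaling, -0.082 in the authors' values and -0.095 with total gene signal. There, leaving out 1 array gave -0.46 to 0.13 for UCSF034_000379 and -0.23 to 0.39 for UCSF034_000380. UCSF034_000379 turned to 0.13 without adult mammary replicate 1, and UCSF034_000380 to -0.23 without adult mammary replicate 4 and to -0.0099 when reprogrammed mammary replicate 4 was left out. Unscaled, the median of all probes moves by the brightness of the arrays, and for the other settings the cause was not tested. The correlation of the probes stayed between 0.954 and 0.982 and past the threshold in every alternative run. The differences in the gap between the probes kept their sign, while their exact test could not pass the threshold in any setting.

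The differences from adult lung changed in size. Reprogrammed lung minus adult lung for UCSF034_000379 was 5.11 with all probes in the percentile, 4.77 with no scaling, 4.28 after normexp and 4.12 in the authors' values, and for UCSF034_000380 it was 5.85, 5.59 and 5.64 in the last 3. Adult mammary minus adult lung was 3.64, 3.31 and 3.14 for UCSF034_000379 and 4.35, 4.21 and 4.32 for UCSF034_000380 in those 3. Reprogrammed mammary minus adult lung was 2.71, 3.22 and 2.88 for UCSF034_000379 and 3.65, 4.28 and 4.24 for UCSF034_000380 in those 3. For UCSF034_000379 it was also 3.98 with all probes in the percentile, 4.05 after quantile scaling and 4.07 with total gene signal. After normexp UCSF034_000467 turned to 0.13, 0.23 and 0.76 in reprogrammed lung, adult mammary and reprogrammed mammary minus adult lung, and UCSF034_000468 to 0.0035 and 0.49 in the last 2.

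Counts over all probes moved more. From 2 for reprogrammed mammary against reprogrammed lung the count ran from 0 to 464 (347 with no scaling, all lower, and 449 higher and 15 lower after normexp), from 85 for reprogrammed mammary against adult mammary it ran from 0 to 474, and from 41 for reprogrammed lung against adult mammary from 0 to 98 (limma). Where a count was 0, an unadjusted p under 0.05 was found for 119 to 175 probes in the first, 220 in the second and 166 to 177 in the third. Against adult lung the counts ran from 185 to 596, 132 to 557 and 261 to 712 in the order reprogrammed lung, adult mammary and reprogrammed mammary.

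Same-numbered arrays did not deviate together in every pair of groups (correlations from -0.45 to 0.27). With 3 arrays per group such correlations cannot settle whether the numbers pair the samples, and the main fit left them unpaired. With the replicate block, reprogrammed mammary minus reprogrammed lung was -1.001 and -1.06 (limma, adjusted p = 0.276 and 0.331), reprogrammed lung minus adult mammary 0.83 and 1.12 (limma, adjusted p = 0.227 and 0.230), and reprogrammed mammary minus adult lung 4.49 for UCSF034_000379. The block changed no call of the pair, and the counts above became 1, 56 and 42, in the order first given there.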
